A study of Mus musculus with 4 samples.

Results

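Chemokines are small secreted proteins that direct the migration of cells through receptors of the G-protein-coupled class, and atypical chemokine receptors (ACKRs) bind the same ligands, take them up or carry them without starting migration. All features whose symbol is a Ccl, Cxcl, Cx3cl or Xcl ligand or Ackr1 to Ackr4 were taken as members, by symbol alone and without regard to their values. This gave 48 features of the 32285 listed, 44 ligand entries and 4 receptors, for 42 symbols. Of these, 41 lie on named chromosomes, 12 of them on chromosome 11 and 10 on chromosome 5, and 7 are copies of Ccl19, Ccl21a, Ccl21b, Ccl21c or Ccl27a on unplaced scaffolds. In the cells kept, 34 members had at least 100 unique molecular identifiers (UMIs, 1 for each captured mRNA molecule), 9 had between 1 and 99, and 5 had 0. The members held 447898 UMIs, and the 5 most abundant held 59.7% of them.

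The series profiled single CD45- thymic stromal cells from C57BL/6 mice of 6 months. There were 4 droplet 3′ RNA-seq libraries, 2 from wild-type mice (WT 1 and WT 2, titled as mock) and 2 from mice homozygous for a LacZ allele at Foxn1 (Z/Z 1 and Z/Z 2). Foxn1 is the transcription factor on which thymic epithelial cells (TECs) depend, the LacZ allele is hypomorphic, and all mice were untreated. The thymi of several mice were pooled for each library, so a library and not a mouse or a cell is the replicate, with n = 2 per genotype, and p-values measure the spread between libraries only. The sex is given as male in one label and female in another. Where 4 values are listed, the WT libraries come first, each genotype by library number.

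In the thymus, stromal chemokines bring progenitors in from the blood and guide thymocytes between cortex and medulla. Cortical TECs are known for CCL25 and CXCL12, and medullary TECs for the CCR7 ligands CCL21 and CCL19. CXCL9 and CXCL10 are ligands of CXCR3 and are induced by interferons, CXCL1, CXCL2 and CXCL5 attract neutrophils through CXCR2, CCL2 and CCL7 attract monocytes through CCR2, and CXCL13 attracts B cells through CXCR5.

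The libraries were unequal. Called barcodes ranged from 1192 (WT 2) to 5558 (Z/Z 1), their UMIs from 8468086 to 50705511, and 9846 cells of 13981 barcodes were kept, 456 of them from WT 2. WT 1 and WT 2 shared 202 barcodes, which is 16.9% of those of WT 2, and the Z/Z libraries shared 249, against at most 6 between genotypes. Of each such pair, the copy with fewer UMIs had a median of 3.24% (WT) and 1.78% (Z/Z) of the UMIs of the other. Cells with a shared barcode held 82.5% of the TEC UMIs of WT 2 and 66.0% of its fibroblast UMIs, so results are also given without them. Lineage markers separated TECs (Epcam, Krt8), fibroblasts (Pdgfra, Col1a1), endothelial cells (Pecam1, Cdh5) and mural cells (Rgs5, Acta2). Their cell numbers were 552, 104, 1965 and 1550 TECs, 570, 174, 659 and 605 fibroblasts, 110, 25, 698 and 670 endothelial cells, and 71, 11, 410 and 315 mural cells. An unnamed cluster led by Vtn and Kcnj8 had 28, 18, 548 and 130 cells. It matched the fibroblast markers best, but its leading genes held more mural than fibroblast markers. Its cells are therefore outside all fibroblast values unless stated. Foxn1 itself was at 89.3, 116, 50.7 and 68.3 CPM in TECs (a gene's UMIs in a class scaled to a common total), higher in both WT libraries than in either Z/Z library. Classes within a lineage are named after fixed markers with the ending "-like", and clusters without enough markers keep a number.

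The classes differed greatly in share between genotypes. mTEC2-like cells, the Aire-expressing class, made up 48.0, 44.2, 2.90 and 5.10% of TECs. In that class Foxn1 was at 96.0, 163, 121 and 120 CPM, with the genotypes overlapping. In cortical cTEC-like cells it was at 178, 116 and 146 CPM in WT 1, Z/Z 1 and Z/Z 2. The Epcam-low age-associated aaTEC2-like class had 12, 0, 557 and 382 cells. Among fibroblasts, intermediate intFB-like cells made up 15.4, 14.4, 65.6 and 78.0% and medullary medFB-like cells 60.2, 71.3, 26.3 and 15.2%. A change in a lineage sum therefore holds both a change in the mix of classes and a change within them, and values within a class are given where at least 20 cells were present in every library. Within the medFB-like class, most WT cells came from cluster 2 (267, 109, 16 and 14 cells) and most Z/Z cells from cluster 3 (76, 15, 157 and 78 cells).

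Before the values, the bases upstream of 3 genes on chromosome 5 are shown, because Cxcl1 and Cxcl2 both rose in fibroblasts and Cxcl10 held the most UMIs of all members. The windows hold the 250 bases before the RefSeq start (GRCm38.p6), and capitals mark matches, on either strand, to a κB motif (GGAANTNCC) or an interferon-stimulated response element core (GAAA, any 2 bases, GAAA). Cxcl1 is at chr5:90890995-90891244 on the plus strand, with a κB match 70 bases before the start. Cxcl2 is at chr5:90903649-90903898 on the plus strand, with a κB match 96 bases before the start. Cxcl10 is at chr5:92348890-92349139 on the minus strand, with κB matches 158 and 103 bases and a response element match 213 bases before the start.
Cxcl1: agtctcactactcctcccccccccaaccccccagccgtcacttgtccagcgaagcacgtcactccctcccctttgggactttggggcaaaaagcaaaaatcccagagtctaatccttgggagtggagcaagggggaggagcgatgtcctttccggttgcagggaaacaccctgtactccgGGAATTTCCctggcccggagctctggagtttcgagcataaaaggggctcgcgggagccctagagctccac
Cxcl2: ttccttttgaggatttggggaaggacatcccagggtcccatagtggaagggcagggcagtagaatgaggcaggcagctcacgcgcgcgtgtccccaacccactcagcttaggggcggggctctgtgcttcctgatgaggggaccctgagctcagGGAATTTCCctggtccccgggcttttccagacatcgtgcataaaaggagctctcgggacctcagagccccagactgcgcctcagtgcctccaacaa
Cxcl10: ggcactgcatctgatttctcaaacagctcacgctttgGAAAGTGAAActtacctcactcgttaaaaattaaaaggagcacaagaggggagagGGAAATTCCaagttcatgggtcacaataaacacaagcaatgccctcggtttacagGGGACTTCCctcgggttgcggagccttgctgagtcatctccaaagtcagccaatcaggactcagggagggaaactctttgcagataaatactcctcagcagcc
The matched stretch is the same 9 letters in Cxcl1 and Cxcl2. The κB motif was found in 3.92% of all 32851 promoter windows and in those of 7 of the 31 member genes listed (Ccl1, Ccl12, Cxcl1, Cxcl2, Cxcl3, Cxcl9 and Cxcl10). The response element core was found in 2.98% of windows and in those of Ccl19, Cxcl10 and Cxcl14. A match is a description of letters and not a site of binding. No window was listed for Cxcl5, Ccl2, Ccl7 and Ccl11. In the GENCODE annotation of the same assembly, Cxcl1 and Cxcl2 lie within 14.7 kb of each other, Cxcl5 to Cxcl2 spans 147 kb, and Ccl2, Ccl7 and Ccl11 lie in 27.4 kb of chromosome 11 (chr11:82035571-82062955).

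Most members had their highest level in TECs. Of the 34 members with at least 100 UMIs, 22 had their highest mean CPM over libraries in TECs, 8 in fibroblasts, 3 in endothelial cells and 1 in mural cells. Class levels below are CPM of summed UMIs in libraries with at least 10 cells of the class. The members were held out of the genes used for clustering.

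**Figure D1:**
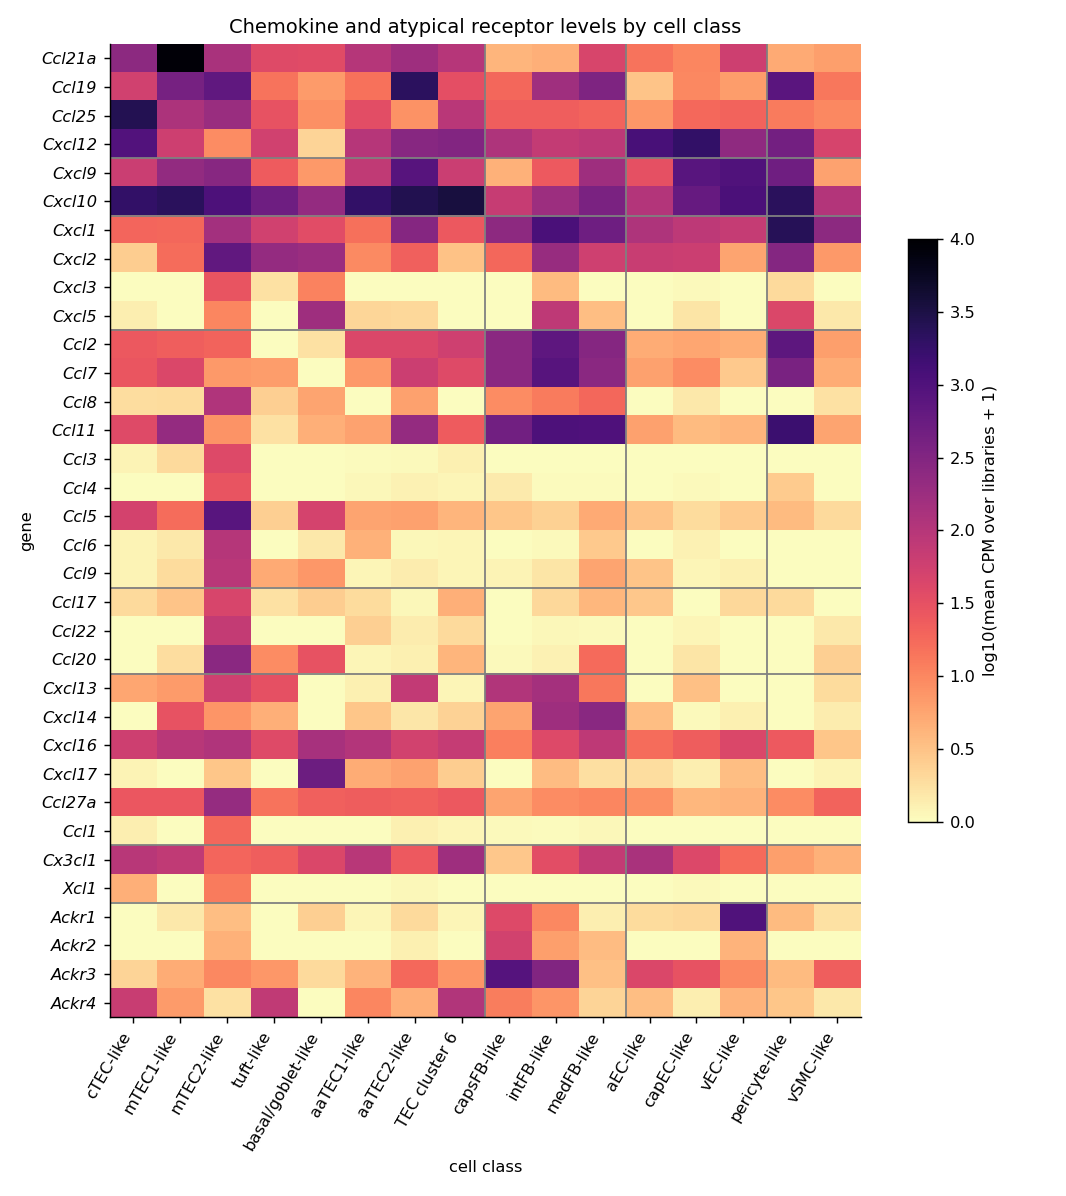
Mean level of the 34 members with at least 100 UMIs (vertical axis, grouped by role) in 16 named or numbered classes (horizontal axis, grouped by lineage), as log10 of mean CPM over libraries + 1. Ccl21a stood at 8762 CPM in mTEC1-like cells, Cxcl12 at 1857 in capEC-like cells, Cxcl1 at 2412 in pericyte-like cells and Ackr1 at 968 in vEC-like cells.

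The thymus-positioning chemokines each had their own source. Ccl21a, the main medullary CCR7 ligand, was at 7080, 9920 and 9286 CPM in mTEC1-like cells of WT 1, Z/Z 1 and Z/Z 2. These cells held 67.5% of the TEC UMIs of Ccl21a. Its reads cannot be fully separated from near-identical copies: Ccl21b matched it at 99.5% of aligned bases and held 2 UMIs, and Gm21541 matched at 99.3% and held 83. Ccl25, which attracts CCR9-bearing progenitors, was at 5948, 643 and 1223 CPM in cTEC-like cells of WT 1, Z/Z 1 and Z/Z 2, which held 73.5% of its TEC UMIs. The WT 1 value lay above both Z/Z values, but WT 2 had only 6 such cells and gave no value. Cxcl12, the ligand of CXCR4, was highest in capillary capEC-like cells at 2013, 2596, 1383 and 1434 CPM, lower in both Z/Z libraries. Most WT cells of that class came from endothelial clusters 3 and 5 and most Z/Z cells from cluster 0. Cxcl12 reached 1229, 629 and 988 CPM in cTEC-like cells of WT 1, Z/Z 1 and Z/Z 2.

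Ccl19, the other CCR7 ligand, came from different TEC classes in the genotypes. Its mean was 2130 CPM in aaTEC2-like cells and 779 in pericyte-like cells. mTEC2-like cells held 90.3, 86.7, 6.77 and 17.5% of the TEC UMIs of Ccl19, and aaTEC2-like cells 4.09, 0, 80.3 and 64.5%.

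Among the CXCR3 ligands, Cxcl10 was highest in TEC cluster 6 (2820.4, 4336 and 3050.2 CPM in WT 1, Z/Z 1 and Z/Z 2), an unnamed cluster with Gbp2 and Ifit2 among its leading genes, and in aaTEC2-like cells (mean 2690). Cxcl9 was highest in venous vEC-like cells (mean 986) and in aaTEC2-like cells (mean 854). Of the neutrophil attractants, Cxcl1 had its highest mean in pericyte-like cells (2412 CPM over the Z/Z libraries) and then intFB-like cells (1150), Cxcl2 (664) and Cxcl3 (28.0) in mTEC2-like cells, and Cxcl5 in basal/goblet-like TECs (166) and intFB-like cells (81.4). Cxcl5 had 0 UMIs in the capsular capsFB-like cells of all 4 libraries.

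The CC chemokines fell into a fibroblast and mural group and an mTEC2 group. Ccl7 had its highest mean in intFB-like cells (856 CPM). Only the Z/Z libraries held enough pericyte-like cells for a level, so Ccl2 and Ccl11 are set side by side in these libraries. Ccl2 was at 771 and 699 CPM in pericyte-like cells and at 949 and 711 in intFB-like cells. Ccl11, an eosinophil attractant, was at 1696 and 1402 in pericyte-like cells, 1917 and 1314 in the unnamed cluster led by Vtn and Kcnj8, and 1343 and 1253 in intFB-like cells. Ccl5 (807), Ccl8 (113), Ccl6 (100.4), Ccl9 (90.6), Ccl3 (39.2) and Ccl4 (28.3), which in most tissues are made by leukocytes, were all highest in mTEC2-like cells. So were the CCR4 ligands Ccl22 (72.2) and Ccl17 (44.5), the CCR6 ligand Ccl20 (257), the CCR10 ligand Ccl27a (202) and Ccl1 (17.9), a ligand of CCR8. mTEC2-like cells held 98.7% of the TEC UMIs of Ccl22, 97.1% of those of Ccl9, 97.0% of those of Ccl20 and 92.8% of those of Ccl5. These genes rested on few cells: a single cell held 18.1, 52.9, 48.0 and 19.9% of the TEC UMIs of Ccl20 in the 4 libraries.

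The remaining ligands were spread over other classes. Cxcl13 was highest among stromal classes in intFB-like cells (mean 146 CPM) and reached 264 in 1 library of a B-cell cluster. Cxcl14, a homeostatic chemokine of epithelia and fibroblasts, was highest in medFB-like cells (269), and Cxcl17, a mucosal chemokine, in basal/goblet-like cells (520). Cxcl16, the membrane-bound ligand of CXCR6, was highest in mesothelial-like cells of 1 library (193). Fractalkine, Cx3cl1, was highest in TEC cluster 6 (168), and Xcl1, lymphotactin, in thymocyte-like cells (13.5), where it rested on 10 UMIs.

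The 4 atypical receptors had their highest levels in venous endothelium, capsular fibroblasts and TEC clusters. Ackr1, which carries chemokines across venules, was at 696, 882 and 1326 CPM in vEC-like cells of WT 1, Z/Z 1 and Z/Z 2, against a mean of 1.08 in capEC-like cells. Ackr3, a scavenger of CXCL12, was at 1023, 793, 789 and 894 CPM in capsFB-like cells and had a mean of 322 in intFB-like and 2.36 in medFB-like cells. Ackr2, a scavenger of inflammatory CC chemokines, was highest in capsFB-like cells (72.3, 51.6, 38.3 and 46.6). Ackr4, which removes CCL19, CCL21 and CCL25, was highest in TEC clusters 6 and 7 (means 109 and 105). Both WT libraries lay above both Z/Z libraries for Ackr2 in capsFB-like cells, while those of Ackr3 overlapped with them.

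In fibroblasts, ligands of CXCR2 and CCR2 and the B-cell attractant Cxcl13 were higher in Z/Z than in WT. Summed over all members, fibroblasts had 3217, 2811, 6067 and 5818 CPM, and both Z/Z libraries lay above both WT libraries. Of 24 members tested by edgeR's quasi-likelihood test on summed UMIs, 7 rose and 3 fell in Z/Z at an adjusted p under 0.05, where 3.79% of all 13519 genes rose and 2.61% fell (6.41% in either direction). The called members made up 41.7% of those tested. The other 14 tested members did not pass, and 24 members were too low to be tested. The median log2 change was 0.29 for the tested members and -0.01 for all genes. The values of the 2 genotypes did not overlap for 15 tested members, against 55% of all genes.

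The neutrophil attractants led. Cxcl5, a CXCR2 ligand, was at 4.72, 4.08, 87.8 and 111 normalised CPM (CPM scaled with TMM factors), with the WT libraries low and both Z/Z libraries high. It rose by 4.45 ± 0.22 on the log2 scale (SE, adjusted p = 6.3e-05). Cxcl1, of the same receptor, was at 351, 380, 1415 and 1358, and rose by 1.93 ± 0.14 (adjusted p = 0.000424). Cxcl2 was at 45.9, 23.4, 209 and 346, again without overlap, and rose by 2.93 ± 0.32 (adjusted p = 0.00184). All 3 tested members of this role rose, and Cxcl3 and Cxcl15 were not tested.

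The CCR2 and CCR3 ligands of chromosome 11 rose by less. Ccl7, a monocyte attractant, was at 269, 223, 812 and 835 normalised CPM, and the Z/Z libraries were both higher (1.74 ± 0.15, adjusted p = 0.000701). Ccl2 was at 289, 304, 778 and 610, with no overlap (1.23 ± 0.16, adjusted p = 0.0043). Ccl11 was at 667, 652, 1353 and 1176 (0.94 ± 0.14, adjusted p = 0.00769). The B-cell attractant Cxcl13 was at 33.7, 2.97, 251 and 199 and rose by 3.37 ± 0.57 (adjusted p = 0.0117). The WT libraries differed from each other by far more for Cxcl13 than for the others, and this call was not made by DESeq2 (adjusted p = 0.107).

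**Figure D2:**
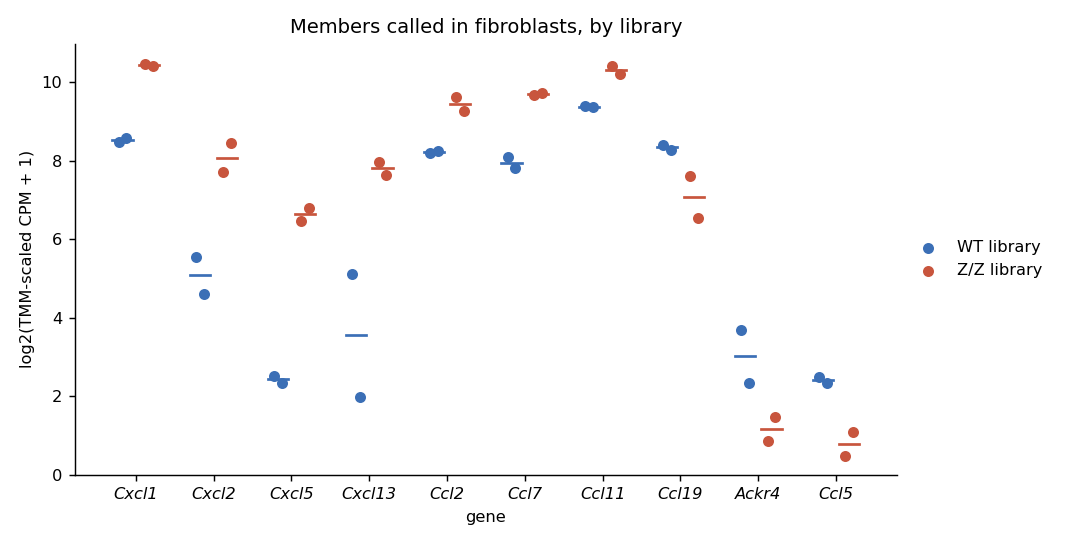
Normalised level of the 10 called members in fibroblasts, as log2 of TMM-scaled CPM + 1 on the vertical axis. Each point is a library (2 WT, 2 Z/Z) and each line the mean of its genotype. Cxcl1 lay at 351 and 380 CPM in WT and at 1415 and 1358 in Z/Z, and Ccl19 ran the other way.

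The members that fell were the CCR7 ligand Ccl19 and 2 genes of low level. Ccl19 was at 337, 310, 193 and 91.3 normalised CPM, both Z/Z libraries lower, and fell by 1.19 on the log2 scale (SE 0.29, adjusted p = 0.0475). It lost the call in 7 of 17 alternative settings. Ackr4 was at 11.9, 4.08, 0.80 and 1.75 from 101, 11, 6 and 11 UMIs (-2.77 ± 0.59, adjusted p = 0.0279), and lost the call without WT 1, without doublet removal or without shared barcodes. Ccl5 was at 4.60, 4.08, 0.400 and 1.11 from 39, 11, 3 and 7 UMIs (-2.55 ± 0.58, adjusted p = 0.0366), and held in 6 of 14 alternatives. Of the members that did not pass, Ackr3 was at 303, 194, 370 and 393 (0.61, adjusted p = 0.119), Cxcl10 at 170, 214, 275 and 258 (0.48, adjusted p = 0.113), and Cxcl14 at 242, 137, 185 and 234, where the genotypes overlapped. Leukocyte markers were low in these cells, with the 5 myeloid markers summing to 15.4, 36.1, 7.06 and 30.6 CPM and none at 0 in any library. Cxcl5, Cxcl1, Cxcl2, Ccl2, Ccl7 and Ccl11 kept their calls in 17 of 17 alternatives, those without shared barcodes and without each library included.

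Within intFB-like cells (88, 25, 432 and 472 cells), 7 of 22 tested members rose and 1 fell, where 1.1% of genes rose and 0.967% fell (2.07% in all), and 16 members had no overlap, against 48.5% of genes. Cxcl5 was at 25.7, 32.7, 133 and 142 normalised CPM (2.32 ± 0.23, adjusted p = 0.00226). Cxcl1 was at 566, 637, 1872 and 1615 (1.54 ± 0.17, adjusted p = 0.00292), and Cxcl2 at 69.0, 6.53, 292 and 428 (2.84 ± 0.44, adjusted p = 0.0125). The WT values of Cxcl2 rested on 78 and 2 UMIs. All 3 thus rose also within the class, and the Z/Z libraries lay above the WT libraries for each.

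Cxcl13 rested on 33, 0, 1625 and 1185 UMIs in intFB-like cells and rose by 3.72 ± 0.44 (adjusted p = 0.00395). Cxcl9, which did not pass in all fibroblasts, was at 5.31, 6.53, 44.9 and 41.1 and rose by 2.93 ± 0.37 (adjusted p = 0.00546). These Cxcl9 values rested on 6, 2, 222 and 200 UMIs, so the WT levels lay near the floor. Cxcl14 was at 96.4, 111, 234 and 231 and rose by 1.20 ± 0.19 (adjusted p = 0.0127). Cxcl12 was at 48.7, 45.7, 101 and 99.4 and rose by 1.07 ± 0.19 (adjusted p = 0.0251), a call lost without WT 1, Z/Z 1 or Z/Z 2. Ackr4 fell there (-3.07, adjusted p = 0.038) from 15, 3, 5 and 9 UMIs, a call that held in 1 of 5 alternatives. The changes of Ccl2 (0.60, adjusted p = 0.271), Ccl7 (0.56, adjusted p = 0.141) and Ccl11 (0.70, adjusted p = 0.136) did not pass within the class. intFB-like cells held 21.5, 19.1, 87.2 and 92.2% of the fibroblast UMIs of Cxcl1 and 98.6% of all those of Cxcl5.

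The intFB-like class itself held 2 clusters. In the larger, with 66, 20, 238 and 272 cells, Cxcl5 was at 17.2, 42.2, 217 and 253 CPM and Cxcl1 at 612, 806, 1974 and 1956. Both Z/Z libraries were above both WT libraries for each gene. The smaller, with 22, 5, 194 and 200 cells, held 76.7% of the fibroblast UMIs of Cxcl13, at 93.1, 564 and 487 CPM in WT 1, Z/Z 1 and Z/Z 2. In these 3 libraries Cxcl5 was there at 48.0, 34.8 and 15.7 CPM, highest in WT 1 (from 16 UMIs). Cxcl1 was there at 534, 1600 and 1188. In both Z/Z libraries Cxcl5 and Cxcl13 thus peaked in different intFB-like clusters, while in WT 1 both were higher in the smaller cluster.

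Within medFB-like cells (343, 124, 173 and 92), 3 of 16 tested members rose and 1 fell, where 1.19% of genes rose and 1.04% fell (2.23% in all), and 12 members had no overlap, against 47.7% of genes. Ccl7 was at 169, 111, 305 and 455 normalised CPM (1.42 ± 0.25, adjusted p = 0.0165) and kept its call in 5 of 5 alternatives. Cxcl9 was at 113, 56.4, 344 and 172 (1.59 ± 0.35, adjusted p = 0.038), a call lost without Z/Z 1. Cxcl12 was at 138, 96.2, 46.0 and 56.0 and fell by 1.23 (SE 0.24, adjusted p = 0.0274), the opposite direction to its change in intFB-like cells, and lost the call without WT 1 or Z/Z 1. The part of the mix of clusters in both class values was not tested. Within cluster 3, Cxcl12 was at 58.6, 49.0, 43.8 and 50.7 CPM and Cxcl9 at 240, 124, 353 and 180, and within cluster 2, with 16 and 14 Z/Z cells, Cxcl12 was at 164, 103, 54.1 and 102 and Cxcl9 at 76.8, 44.1, 27.1 and 68.2. The genotypes overlapped for Cxcl9 in both clusters and for Cxcl12 in cluster 3, and lay next to each other for Cxcl12 in cluster 2. Ccl7 was at 194, 22.6, 305 and 493 CPM in cluster 3, without overlap, and at 164, 125, 144 and 22.7 in cluster 2, with overlap. Ccl21a rested on 14, 2, 15 and 162 UMIs (5.08 ± 1.08, adjusted p = 0.0343), stood high in Z/Z 2 alone, and was not called without it. Haemoglobin transcripts, leading genes of the cluster that held most WT medFB-like cells, were also uneven, with Hbb-bs at 161, 1314, 1.28 and 2.32 CPM in all fibroblasts, and their part in these values was not tested.

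In capsFB-like cells (139, 25, 54 and 41), 0 of 13 tested members passed in edgeR, where 0 genes rose and 0.0132% fell, and 4 members had no overlap, against 42.8% of genes. At an unadjusted p under 0.05 there were 3 members, against 858 of 7566 genes. They were Cxcl13 (3.91, adjusted p = 0.0787), Ccl2 (-1.24, adjusted p = 0.169) and Ccl7 (-0.80, adjusted p = 0.266). Ccl2 was at 444, 296, 197 and 115 normalised CPM, so its values ran opposite to those in all fibroblasts.

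**Figure D3:**
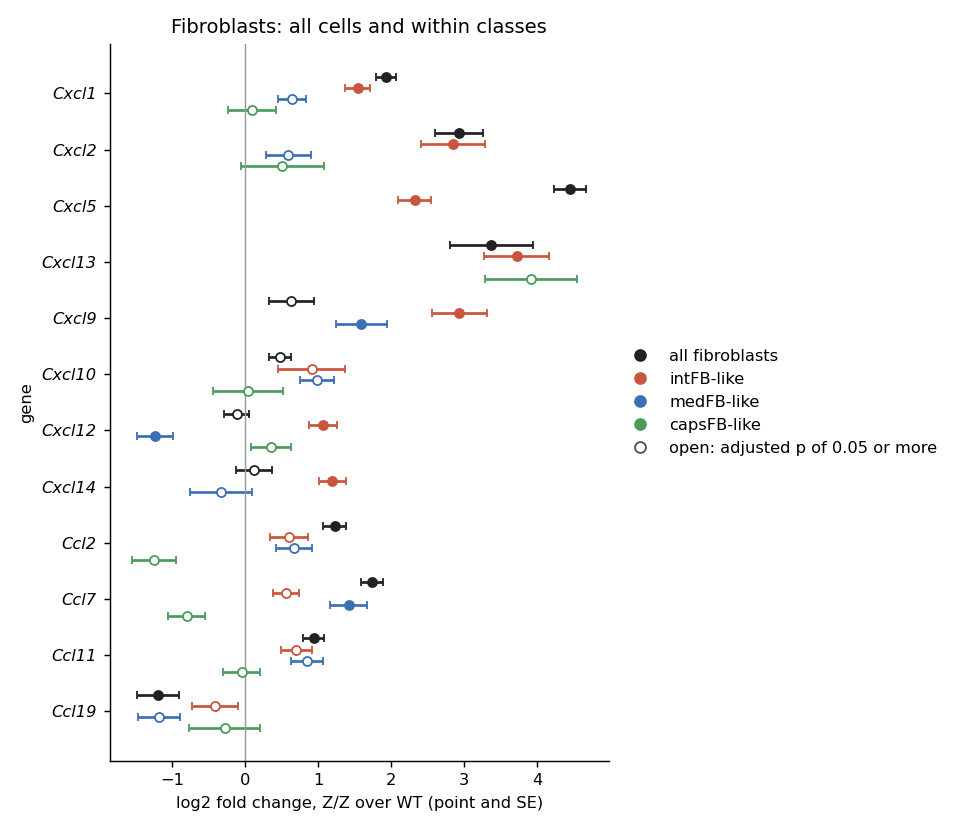
Log2 change from WT to Z/Z with its SE (horizontal axis) for 12 chemokines in all fibroblasts and in intFB-like, medFB-like and capsFB-like cells. Filled points passed an adjusted p of 0.05 and open points did not. Cxcl5 and Cxcl1 lay above 0 in all fibroblasts and in intFB-like cells (4.45 and 2.32 for Cxcl5), while Ccl2 lay below 0 in capsFB-like cells (-1.24).

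In TECs, Cx3cl1 and Cxcl10 were higher in Z/Z, Ccl21a was called higher but turned with the processing, and 4 chemokines of mTEC2-like cells were lower. Of 34 members tested, 3 rose and 4 fell in Z/Z, where 9.75% of 18868 genes rose and 11.7% fell, together 21.5%, and the other 27 did not pass. The called share of 20.6% lies near that of all genes. The other 14 members were too low to be tested. The median log2 change was -0.54 for the members and 0.00 for all genes, 16 members had no overlap against 67.9% of genes, and the summed level of all members was 5198, 5317, 4282 and 4512 CPM. Cell depth differed with genotype, with a median of 16863.5, 17716.5, 6746 and 7046.5 UMIs per TEC, and its part in these values was not tested beyond the thinned fit. In cells thinned to 2000 UMIs each, 2 of 23 members rose and 8 fell, where 1077 of 12399 genes rose and 1607 fell. The median log2 change was -0.74 for the members and 0.01 for all genes in that fit. Without shared barcodes edgeR called 0 of 32 members, where 0 of 17700 genes rose and 1 fell. There, 8 members were at an unadjusted p under 0.05, against 3441 genes. Without TMM factors 2 members rose and 4 fell, where 1300 of 18868 genes rose and 2546 fell. Without Z/Z 1, which leaves 1 Z/Z library, the median log2 change was -0.62 for the members and -0.05 for all genes.

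Cx3cl1, Cxcl10 and Ccl21a rose. Cx3cl1, a membrane-bound ligand for CX3CR1, was at 32.1, 38.2, 92.5 and 90.5 normalised CPM, with tight libraries and no overlap, and rose by 1.39 ± 0.16 on the log2 scale (adjusted p = 0.00936). aaTEC1-like cells held 2.64, 17.4, 34.4 and 36.3% of its TEC UMIs. Cxcl10 was at 1032, 1167, 2042 and 1886 and rose by 0.84 ± 0.17 (adjusted p = 0.0284). That call was lost in 6 of 17 alternatives, among them the fit without the Epcam-low aaTEC2-like clusters. Ccl21a was at 552, 561, 831 and 1095 (0.79 ± 0.19, adjusted p = 0.0393), with the Z/Z libraries higher, but the call held in only 8 of 17 alternatives. It was lost without any 1 of the 4 libraries, without TMM factors, with the replicate block and with empty-droplet RNA subtracted, and the change was -0.24 in cells thinned to 2000 UMIs each and -0.27 without shared barcodes.

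Ccl20, Ccl27a, Ccl5 and Ccl9 fell, all of them genes with their highest level in mTEC2-like cells. Ccl27a was at 117, 200, 31.1 and 39.3 normalised CPM, both Z/Z libraries lower (-2.16 ± 0.29, adjusted p = 0.0119). Ccl20 was at 202, 94.3, 27.2 and 9.82, again without overlap (-3.01 ± 0.59, adjusted p = 0.0246). Ccl9 was at 52.7, 31.6, 6.22 and 15.4 (-1.99 ± 0.49, adjusted p = 0.0419) and lost its call in 6 of 17 alternatives. Ccl5 was at 255, 1256, 12.0 and 64.9 (-4.29 ± 1.10, adjusted p = 0.0461), and 1 cell held 82.5% of its UMIs in WT 2. Leaving out the highest cell of each library gave 226, 233, 9.28 and 53.6 CPM for Ccl5, still without overlap. Its call was lost in 6 of 17 alternatives, those without Z/Z 1, Z/Z 2, shared barcodes or the Epcam-low clusters, with no doublet removal and with empty-droplet RNA subtracted. The 5 myeloid markers of the list summed to 278, 691, 62.4 and 100 CPM in TECs with none at 0, of which Lyz2 gave 228, 635, 49.5 and 64.3. Their sum was lower in both Z/Z libraries, as for Ccl5 and Ccl9, but between the WT libraries Ccl9 ran the other way. Ptprc was at 23.0, 16.8, 3.46 and 21.2, with overlap. Of the TEC Lyz2 UMIs, 2701 of 2796, 1468 of 1473, 910 of 1015 and 978 of 1169 lay in mTEC2-like cells. Within that class Lyz2 was at 398, 1088, 725 and 456 CPM, with the genotypes overlapping. The part of the myeloid markers in these results was not tested.

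Of the abundant members that did not pass, Ccl25 came nearest, at 928, 296, 73.3 and 182 normalised CPM (-2.27 ± 0.66, adjusted p = 0.0631), with both WT libraries above both Z/Z libraries. Ccl22 did not pass either (-1.75, adjusted p = 0.0969). Ccl19 was at 437, 599, 608 and 322 (-0.15 ± 0.34, adjusted p = 0.768), with the genotypes overlapping. This near-equal sum came from different classes, as given above. Cxcl12 was at 191, 93.9, 197 and 249 (0.63, adjusted p = 0.236), Cxcl9 at 212, 101, 178 and 199 (0.25, adjusted p = 0.632), and Cxcl2 at 319, 178, 51.3 and 164 (-1.21, adjusted p = 0.183).

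**Figure D4:**
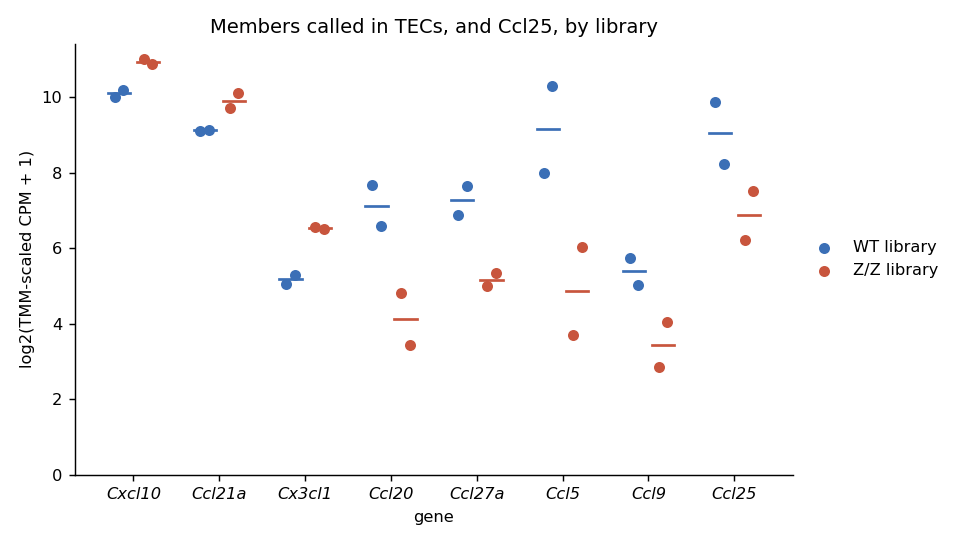
Normalised level of the 7 called members and of Ccl25 in TECs, as log2 of TMM-scaled CPM + 1 on the vertical axis. Each point is a library (2 WT, 2 Z/Z) and each line the mean of its genotype. Cx3cl1 was at 32.1 and 38.2 CPM in WT and 92.5 and 90.5 in Z/Z, and the WT points of Ccl5 lay far apart at 255 and 1256.

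The genes that fell in TECs did not pass within mTEC2-like cells (265, 46, 57 and 79 cells). There, 0 of 25 tested members passed in edgeR, where 0.00802% of 12474 genes rose and 0 fell, and 8 members had no overlap, against 48.8% of genes. At an unadjusted p under 0.05 there were 3 of the 25, against 1660 of 12474 genes, a similar share. They were Ccl21a (1.44), Ccl27a (-1.09) and Ccl19 (-0.65), with adjusted p from 0.309 to 0.353. Ccl20 was at 379, 175, 404 and 79.1 normalised CPM (-0.22 ± 0.78), with the genotypes overlapping. Ccl9 was at 101, 57.9, 86.9 and 123 (0.39 ± 0.34), and Ccl22 at 82.7, 29.3, 75.9 and 105 (0.65 ± 0.50), both overlapping too. Ccl5 was at 452, 2321, 86.1 and 479 (-2.28 ± 1.06), with WT 2 apart. Ccl27a kept lower values in Z/Z at 209, 355, 139 and 124 (-1.09 ± 0.30, adjusted p = 0.313). With 46 WT 2 cells and 57 Z/Z 1 cells, an SE of 0.78 for Ccl20 leaves changes of more than 1 log2 unit within its interval, so these values do not show that the levels were alike.

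**Figure D5:**
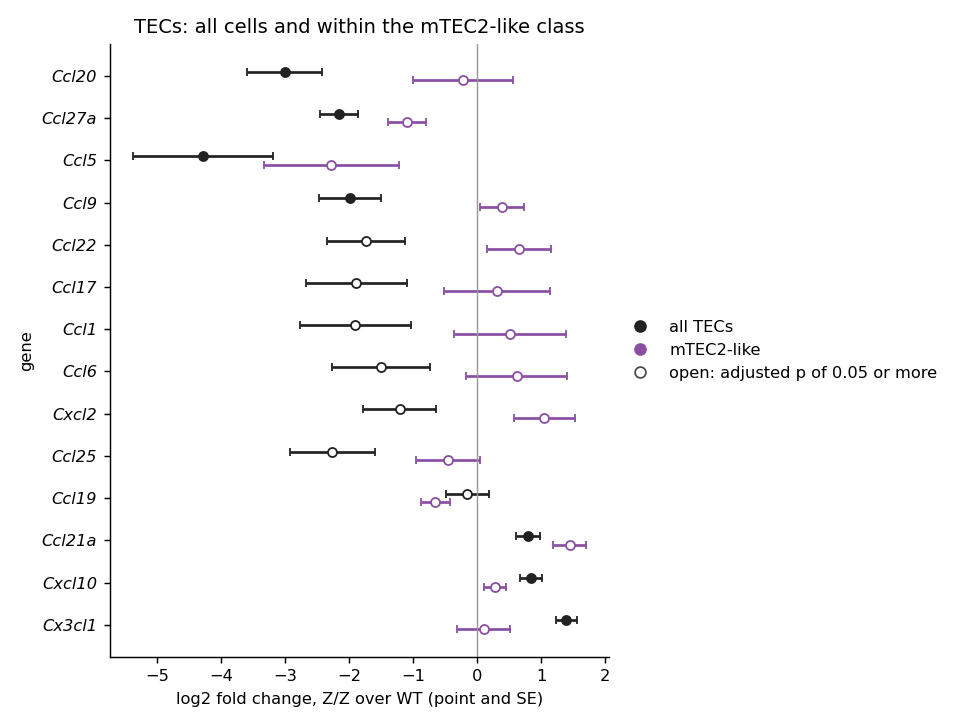
Log2 change from WT to Z/Z with its SE (horizontal axis) for 14 members in all TECs and in mTEC2-like cells. Filled points passed an adjusted p of 0.05 and open points did not. Ccl20 lay at -3.01 in all TECs and at -0.22 in mTEC2-like cells, while Ccl5 lay below 0 in both (-4.29 and -2.28).

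Endothelial cells showed little. Of 16 members tested, 1 rose and 0 fell in edgeR, where 1% of 11362 genes rose and 0.942% fell (1.95% in all). An unadjusted p under 0.05 was reached by 6 members, against 2098 genes, and 8 had no overlap, against 53.2% of genes. DESeq2 called 0 members, where 96 genes rose and 104 fell, with 3 members at an unadjusted p under 0.05, against 1019 genes. It gave no adjusted p for Ccl11, so it neither made nor refused a call for that gene. The called member was Ccl11, from 2, 0, 96 and 230 UMIs (adjusted p = 0.0425), low in both WT libraries. The pooled counts gave a Z/Z to WT ratio of 18.5 with an exact 95% interval of 5.07 to 153, which covers counting error only. A single unnamed cluster of 2, 1, 27 and 22 cells, with the mural gene Steap4 among its leading genes, held 85.7% of the endothelial Ccl11 UMIs, and the call was lost in 7 of 14 alternatives. Cells of this cluster had a median of 23447 and 17529 UMIs in Z/Z 1 and Z/Z 2, against 5926.5 and 5494.5 for all endothelial cells. Whether doublets had a part in it was not tested. The summed mural markers in endothelial cells were 244, 462, 409 and 402 CPM, and only Kcnj8 of the 6 was at 0, in WT 2.

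The abundant endothelial members did not pass. Cxcl12, the CXCR4 ligand, was at 1294, 1277, 1182 and 1121 normalised CPM (-0.16 ± 0.20, adjusted p = 0.706). Cxcl9 was at 543, 422, 579 and 955 (0.64 ± 0.26, adjusted p = 0.213) and Cxcl10 at 527, 417, 587 and 761 (0.49 ± 0.22, adjusted p = 0.267), both without overlap but not called. Ackr1 was at 233, 51.5, 161 and 309 (0.47 ± 0.42, adjusted p = 0.587), Ackr3 at 12.1, 20.6, 42.9 and 34.1 (1.47, adjusted p = 0.0813) and Cx3cl1 at 52.6, 82.4, 46.2 and 45.5 (-0.41, adjusted p = 0.465). Cxcl1 (0.37) and Cxcl2 (0.48) did not pass and overlapped between genotypes.

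In mural cells, 0 of 12 tested members passed in edgeR or DESeq2, where 0% of 8658 genes passed in edgeR, and 5 had no overlap, against 42.7% of genes. At an unadjusted p under 0.05 there were 5 members in edgeR, against 761 of 8658 genes, and 4 in DESeq2, against 320. At the adjusted threshold, 8 of all genes rose and 2 fell in DESeq2. The values rested on 11 cells in WT 2, which stood far from WT 1: Cxcl1 was at 548, 2333, 713 and 598 normalised CPM and Ccl11 at 131, 1456, 356 and 255. Cxcl12 was at 55.9, 70.2, 133 and 119 (1.08 ± 0.31, adjusted p = 0.349), Ccl2 at 85.5, 43.8, 166 and 133 (1.01 ± 0.33, adjusted p = 0.406) and Cxcl9 at 147, 535, 105 and 86.6 (-1.62 ± 0.49, adjusted p = 0.38). Ccl19 (-1.08), Cxcl10 (0.40) and Ccl7 (0.81) overlapped between genotypes.

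Of 28 other genes of the pathway, 19 receptors and 9 further ligands and enzymes, 20 were tested in TECs, where 5 fell and 1 rose, against 11.7% and 9.75% of all genes. All that fell were receptors. Ccr4, the receptor for Ccl17 and Ccl22, was at 23.4, 28.7, 1.92 and 4.48 normalised CPM (-3.02 ± 0.45, adjusted p = 0.0143), and Cxcr5, the receptor for Cxcl13, at 12.9, 13.7, 2.64 and 2.81 (-2.28 ± 0.31, adjusted p = 0.0117). Both WT libraries were higher for each. Ccr6 (-2.65), Ccr7 (-2.79) and Ccr2 (-3.06), receptors for Ccl20, for Ccl19 and Ccl21a and for Ccl2 and Ccl7, fell too, with adjusted p of 0.0302, 0.0435 and 0.0487. Within mTEC2-like cells 0 of 17 pathway genes passed in edgeR. Cxcr5 (-1.73) was the 1 at an unadjusted p under 0.05, against 1660 of 12474 genes. Tafa5, a secreted chemokine-like protein, was at 7.76, 7.06, 35.8 and 32.7 and rose by 2.19 ± 0.21 (adjusted p = 0.00855). In fibroblasts, 2 of 12 tested rose, against 3.79% of all genes: Ccrl2, a chemerin-binding receptor, at 11.1, 12.6, 29.5 and 25.9 (1.25 ± 0.21, adjusted p = 0.011), and Rarres2, which encodes chemerin, at 442, 374, 642 and 795 (0.81 ± 0.16, adjusted p = 0.0218). Of the 8 pathway genes tested in endothelial cells and the 6 in mural cells, 0 passed in edgeR or DESeq2. Rarres2 (2.53) and Gpr182 (-0.94) in endothelial cells were at an unadjusted p under 0.05 in edgeR, against 2098 of 11362 genes. So was Ccrl2 (1.76) in mural cells, against 761 of 8658 genes.

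Whether a member's change in fibroblasts differed from its change in TECs was tested directly, in a fit over both lineages with library as a term. Of 32 members, 12 differed at an adjusted p under 0.05, 9 with a change that was higher in fibroblasts than in TECs and 3 with one that was lower, where 12.4% of 17833 genes differed. Cxcl1 was at 93.8, 59.4, 83.1 and 56.9 normalised CPM in TECs against 351, 380, 1415 and 1358 in fibroblasts, a difference in log2 change of 2.14 ± 0.26 (adjusted p = 0.00251). Cxcl13 was at 47.0, 11.6, 28.6 and 17.9 in TECs against 33.7, 2.97, 251 and 199 in fibroblasts (4.06 ± 0.34, adjusted p = 0.000814). Both genes overlapped between genotypes in TECs and separated in fibroblasts.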

How the data were processed

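Per the labels and the study's methods, CD45- cells were depleted of haematopoietic cells, sorted and captured with the 10x Genomics 3′ chemistry. The authors made the deposited counts, whole UMI counts per gene and barcode, with Cell Ranger 7.01 on GRCm38.p5 and mm10, as named in the submitters' processing notes, and did not normalize them. Run summaries deposited by the authors put sequencing saturation at 65.2 to 95.2 percent of reads. The members, gene lists and markers were chosen with earlier results of these data known.

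Barcodes with more than 1000 genes and under 20% mitochondrial UMIs were kept, and the top 3.9% of Scrublet scores per library were removed as doublets, the multiplet rate given in the methods, because the automatic threshold marked 0.800% of cells. Ribosomal and haemoglobin features (98) were left out of clustering and fits. Cells were clustered with scanpy 1.11.5 and leidenalg 0.10.2 on 3500 variable genes, members and pathway genes excluded, and named from fixed markers, so that class names may differ from the study's. UMIs were summed per library and class, since cells are not replicates. WT and Z/Z were compared with edgeR 4.0.16 (quasi-likelihood F test, TMM factors, filterByExpr, two-sided, R 4.3.3), with Benjamini-Hochberg adjustment over all genes tested and a threshold of 0.05. The SE is the log2 change divided by the square root of F. The same test on simulated data was checked to recover known changes. DESeq2 1.42.0, other filters, thinning to 2000 UMIs, subtraction of empty-droplet RNA, a replicate block, and leaving out each library or shared barcodes were the alternatives. Named in a lineage were every member called and the 8 tested members of highest mean CPM, and across classes every member with at least 100 UMIs. Nothing in the numbering ties WT 1 to Z/Z 1, and Cxcl11 was not used here.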

Additional observations from a re-analysis of the deposited data

Results flagged for a closer look

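The 12 members below were marked because the change from WT to Z/Z in fibroblasts differed from that in TECs by a test of the difference itself (edgeR, adjusted p under 0.05). The values are the fibroblast change minus the TEC change on the log2 scale. The fibroblast change was higher for Cxcl2 (4.45), Cxcl5 (4.39), Cxcl13 (4.06), Cxcl1 (2.14), Ccl2 (2.05) and Ccl7 (1.76), genes that rose in fibroblasts and did not pass in TECs. In TECs, Cxcl2 was at 319, 178, 51.3 and 164 normalised CPM and Ccl2 at 25.9, 69.8, 28.4 and 20.8 (both WT libraries, then both Z/Z libraries).

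For Ccl25 (2.31) and Ccl27a (2.06) the difference came with lower TEC values in Z/Z and nearly level fibroblast values, 20.5, 19.7, 14.8 and 24.8 normalised CPM for Ccl25 and 9.08, 5.94, 7.20 and 8.43 for Ccl27a. Cxcl3 (9.34) had 0 UMIs in WT fibroblasts and 55 in Z/Z fibroblasts, so this fitted value is no bound. Against a floor of 3 counts over the pooled WT libraries, its pooled Z/Z level was 13.9-fold higher. This ratio leaves out the spread between libraries and is no bound on a genotype effect. Cxcl3 was too low to be tested in fibroblasts alone, and had 117, 4, 99 and 36 UMIs in TECs. The fibroblast change was lower for Cx3cl1 (-1.36), which was at 38.3, 38.6, 38.0 and 38.7 in fibroblasts, and for Ackr4 (-2.66) and Ccl19 (-1.01), which fell in fibroblasts and did not pass in TECs.

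Alternatives to this test were chosen after the data were seen. Over 7 of them, Cxcl1, Cxcl2, Cxcl13, Ccl25 and Ccl2 kept their calls in all. With shared barcodes left out, 7 of 33 members had a higher and 2 a lower fibroblast change, where 400 and 369 of 17450 genes did. Without WT 1 the calls of Cxcl5, Cxcl3, Ackr4 and Ccl19 were lost, and without shared barcodes those of Ccl27a, Cx3cl1, Ackr4 and Ccl7. Ccl19 was also lost without Z/Z 2, and Ccl7 and Ccl19 when the unnamed cluster led by Vtn and Kcnj8 was counted as fibroblasts.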

How the results depend on the processing

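Of 832 values of the named members under alternatives, 698 kept their direction and side of the threshold, 80 lost and 28 gained a call, and 26 changed direction. Of the called values, 361 of 443 were unchanged in this sense, 80 lost the call and 2 changed direction. An endothelial Ccl11 value from DESeq2 had no adjusted p and was left out. A library left alone in its genotype is assumed to vary like the others. WT 2, with 456 cells kept, limits every comparison, most in endothelial and mural cells. Shared barcodes kept once, with the larger copy, changed no count of called members in the 4 lineages.

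Called members in TECs numbered 7. With no filter on low counts, 12 of 42 members were called, where 2615 of 27399 genes rose and 3000 fell. Without shared barcodes 0 of 32 were called, where 0 of 17700 genes rose and 1 fell. With each library left out, the median log2 change of the TEC members ranged from -0.62 to 0.23. Fibroblasts had 10 and, unfiltered, 21 of 35, where 1062 of 22607 genes rose and 760 fell. With the unnamed cluster led by Vtn and Kcnj8 counted in, 8 of 25 members rose and 1 fell. Of 13873 genes, 228 rose and 144 fell there. This setting was added after the data were seen. Endothelial cells had 1, but 3 of 35 unfiltered, where 469 of 20854 genes rose and 262 fell. They had 0 in DESeq2, which gave no adjusted p for Ccl11, and 0 without TMM factors. Of 11362 genes, 96 rose and 104 fell in DESeq2, and 98 rose and 84 fell without TMM factors. They also had 0 with over 500 genes per cell, thinned, with empty-droplet RNA subtracted and without shared barcodes. In these 4 settings 67, 9, 104 and 30 genes rose and 54, 7, 93 and 26 fell. With a library left out, the median log2 change of the endothelial members ranged from 0.24 to 0.98. Mural cells had 0, but 3 of 30 unfiltered, where 107 of 18979 genes rose and 51 fell. They had 1 with over 500 genes per cell, where 11 of 8703 genes rose and 1 fell. Thinned, they had 1 too, where 3 of 5404 genes rose and 4 fell. With a library left out, the median log2 change of the mural members ranged from -0.97 to 0.33. With a library left out, capsFB-like cells had 0 to 3, intFB-like cells 6 to 13 (8 with all) and medFB-like cells 6 to 10 (4 with all). The number of calls over all genes also changed in each of these class fits, so the member counts alone do not show a change particular to members. The median log2 change of the members ranged there from -0.45 to -0.25 (capsFB-like), 0.82 to 1.30 (intFB-like) and 0.19 to 0.75 (medFB-like). For all genes it ranged from -0.024 to 0.034, -0.028 to 0.127 and -0.018 to 0.026. Without TMM factors the median TEC change of all genes was -0.14. The cause of these shifts was not tested.

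The replicate numbers share no source in the labels, and deviations of same-numbered libraries correlated at -0.09 in TECs and -0.07 in fibroblasts. With the replicate block, 4 members were called in TECs, 13 in fibroblasts, 1 in endothelial and 1 in mural cells. Of all genes, 988, 593, 194 and 44 rose there and 1379, 456, 169 and 15 fell. In capsFB-like, intFB-like, medFB-like and mTEC2-like cells 1, 9, 7 and 0 members were called. Of all genes, 9, 203, 280 and 0 rose in these classes and 8, 155, 250 and 0 fell.

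The log2 change turned direction for these members. With 1 library left out at a time, it ranged in TECs from -0.67 to 0.23 for Ccl19 (0.11 without WT 2) and from -0.15 to 0.90 for Cxcl9, in fibroblasts from -0.21 to 0.61 for Cxcl14 (-0.041 without Z/Z 2), in endothelial cells from -0.42 to 1.06 for Cxcl2 (-0.15 without Z/Z 1), and in mural cells from -1.56 to 0.33 for Ccl19, -1.73 to 0.27 for Cxcl1, -0.020 to 1.43 for Cxcl10, -0.96 to 3.43 for Ccl7 and -2.15 to 1.23 for Ccl11. Thinning gave 0.58 for Ccl19 and -0.24 for Ccl21a in TECs, -0.044 for Cxcl14 in fibroblasts, -0.079 for Ackr1, -0.065 for Cxcl10 and 0.025 for Cxcl12 in endothelial cells, and -0.052 for Cxcl10 in mural cells. Without shared barcodes, TECs had 0.74 for Ccl19 and -0.27 for Ccl21a, and fibroblasts -0.22 for Cxcl14. Without the Epcam-low clusters Cxcl9 was -0.99 in TECs. Under 10% mitochondrial UMIs, Ackr3 was -0.19 in fibroblasts and Ccl19 0.51 in mural cells, where over 500 genes per cell gave 0.49. The causes were not tested.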
